A study of Mus musculus with 32 samples.

Results

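Established lactation was compared with late pregnancy in the mouse mammary gland. The 8 arrays compared, of 32 in the series, were chosen by their titles: 4 mammary arrays of lactation day 9 and 4 of pregnancy day 17. All came from dams of FVB, an inbred strain, kept on ordinary chow, and no transgene or drug is named for either stage. The other chow stages, pregnancy day 12 and lactation days 1 and 2, had 4 arrays each, and 12 further arrays came from mammary gland and liver of dams on defined diets at lactation day 10. Ages are not given, and nothing in the labels says that each array stands for a separate dam. The p-values therefore measure the spread between these arrays, whose small number bounds the precision.

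In late pregnancy the gland already holds milk-forming alveoli, but circulating progesterone keeps secretion in check. After birth progesterone falls, while prolactin acts through its receptor, the kinase JAK2 and the transcription factor STAT5 to keep the alveoli filling. The secretory cells then take up glucose, amino acids, fatty acids and minerals and release caseins, lactose and membrane-wrapped fat droplets. Myoepithelial cells around the alveoli eject the milk, and fat cells, fibroblasts, vessels and immune cells make up the rest of the tissue. In such whole tissue, fewer cells of a type and less RNA per cell cannot be told apart.

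Values are log2 intensities, so a difference of 1 is a 2-fold change, and each gene is read by its brightest probe set. Probe sets entered the test if the mean of at least 1 stage reached 4.24, called the filter line here. Of 7155 probe sets tested by limma, 2286 (31.9%) were higher and 2289 (32.0%) lower at lactation day 9 at an adjusted p under 0.05. The falls were larger than the rises, with a median change of -0.87 among lower calls and 0.57 among higher calls. Changes of at least 2-fold took in 300 higher calls (4.19%) and 951 lower calls (13.3%). The 4 and 4 arrays did not overlap for 4165 probe sets (58.2%). Against these shares, the number of calls in a gene group says little unless it goes well past 31.9% or 32.0%.

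The change varied with the level of a probe set. The median change was 0.34 for probe sets with a mean level between 4 and 5, -0.36 between 7 and 8, and 0.31 for the 5267 probe sets too dim to test. The arrays' 25th percentiles were 9.40 to 10.5 at lactation day 9 and 7.84 to 8.61 at pregnancy day 17 on the linear scale, and their 75th percentiles 60.5 to 64.0 and 71.7 to 74.0. Of the higher calls, 69.8% had a lactation day 9 mean below 6.13, the 75th percentile of all values. Rises of under 1 in dim probe sets move with this shift between the arrays, and its part in them was not tested. When the arrays were put on equal ribosomal medians, the median change of all tested probe sets was 0.54 in place of 0.01, and 82% of the calls were rises in place of 50%. The share of rises was 55.2% under quantile normalization and 63.1% under equal array medians. Changes are therefore relative to the bulk of the RNA on each array.

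**Figure D1:**
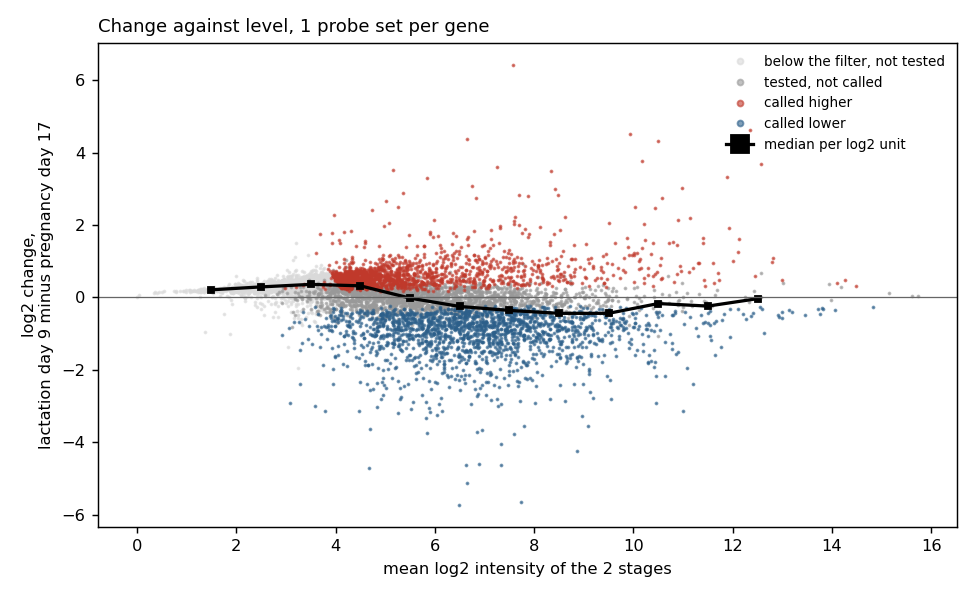
Log2 change at lactation day 9 against the mean log2 intensity of both stages for 1 probe set per gene; red and blue points were called higher and lower, and the black line joins the medians per log2 unit. The median lies above 0 among dim genes and below 0 among genes between 6 and 10, and the largest changes, to 6.43 for Egf and -5.73 for Rgs16, lie far outside it.

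The lactation day 9 arrays differed among themselves more than the pregnancy arrays did in fibroblast and erythrocyte markers. Summed intensity of the 23 fibroblast and matrix genes on the array was 2320, 6740, 4880 and 5370 in replicates 1 to 4 at lactation day 9, against 15700, 15800, 16100 and 15700 at pregnancy day 17. Erythrocyte genes summed to 790, 17000, 6550 and 9730, against 3670, 6520, 4710 and 3820. Replicate 1 of lactation day 9 thus read lowest for matrix and blood genes and replicate 2 highest. Replicate 2 also correlated best with the pregnancy arrays, with a mean r of 0.911 where the other lactation day 9 arrays had 0.875 to 0.884. Without replicate 1 the calls were 2106 higher and 2166 lower, and without replicate 2 they were 2372 and 2260.

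The labelled tissue fitted its defining genes. Wap, the whey acidic protein, was at 15.66 or more on all 8 arrays, the caseins Csn1s1 at 14.96 or more and Csn2 at 13.79 or more, and Glycam1, a mucin-like milk protein, at 15.51 or more. Genes of the milk proteins were thus near the top of the scale before birth, and most moved little afterwards. Established lactation brought 6 calls upward and 1 downward among the 13 tested, with a median change of 0.38, against 0.01 over all tested probe sets. Under equal array medians 10 were higher, and under equal ribosomal medians 11.

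Csn1s2b, a calcium-sensitive casein, was the exception among the caseins. It read 14.72, 14.76, 14.74 and 14.37 at lactation day 9, against 10.72, 10.00, 9.44 and 9.98 at pregnancy day 17, a 24.5-fold difference (log2 change 4.62 ± 0.31 SE, adjusted p = 7.06e-10). Lalba, which encodes alpha-lactalbumin, the cofactor that turns a galactosyltransferase into lactose synthase, had 14.36, 14.22, 14.55 and 14.52 at lactation day 9, against 11.07, 10.20, 10.56 and 11.11. Its change was 3.67 ± 0.47 (adjusted p = 2.19e-06), and for both genes the stages lay far apart. Ltf, the iron-binding lactoferrin, rose by 1.01 ± 0.25 (adjusted p = 0.00198). Csn3, the casein that coats the micelle, rose by 0.48 ± 0.11 (adjusted p = 0.000608), and Csn2, beta-casein, by 0.41 ± 0.10 (adjusted p = 0.00135).

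Other milk protein genes changed less than their spread allowed to be called. Wap differed by 0.04 ± 0.18 (adjusted p = 0.863), Csn1s1 by 0.12 ± 0.08 (adjusted p = 0.211) and Glycam1 by 0.05 ± 0.09 (adjusted p = 0.606). These levels lie near the highest intensity in the tables, 58520.1 on the linear scale, and saturation was not tested. All 3 were called higher under equal ribosomal medians (Wap 0.57, Csn1s1 0.65, Glycam1 0.58), and Csn1s1 and Glycam1 under equal array medians (0.29 and 0.22). The member called lower was Wfdc18, a whey protein named after its values were seen, at -0.32 ± 0.11 (adjusted p = 0.0158), a call lost under quantile normalization and equal array medians and turned to 0.21 under equal ribosomal medians.

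The promoters of the uniformly high genes Csn1s1, Csn2 and Glycam1 are shown because STAT5, the transcription factor of the prolactin signal, is known to act through the element TTCNNNGAA at milk protein genes. Each window runs from 250 bases before to 50 after the start of the gene in RefSeq, build GRCm38.p6, and capitals mark the element, which reads the same on both strands. Csn1s1 lies at chr5:87665958-87666257 on the plus strand, Csn2 at chr5:87699376-87699675 on the minus strand and Glycam1 at chr15:103565032-103565331 on the minus strand.
Csn1s1: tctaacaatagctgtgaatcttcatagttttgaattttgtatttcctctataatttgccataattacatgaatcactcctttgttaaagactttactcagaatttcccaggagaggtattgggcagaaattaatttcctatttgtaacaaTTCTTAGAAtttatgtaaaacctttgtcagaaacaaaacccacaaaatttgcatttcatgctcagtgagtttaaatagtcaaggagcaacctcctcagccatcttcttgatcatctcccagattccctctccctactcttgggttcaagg
Csn2: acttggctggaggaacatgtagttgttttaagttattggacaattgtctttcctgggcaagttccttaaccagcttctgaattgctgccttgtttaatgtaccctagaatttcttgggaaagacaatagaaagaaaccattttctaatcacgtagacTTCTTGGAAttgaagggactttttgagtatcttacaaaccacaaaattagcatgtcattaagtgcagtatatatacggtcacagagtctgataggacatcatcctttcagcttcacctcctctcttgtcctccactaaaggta
Glycam1: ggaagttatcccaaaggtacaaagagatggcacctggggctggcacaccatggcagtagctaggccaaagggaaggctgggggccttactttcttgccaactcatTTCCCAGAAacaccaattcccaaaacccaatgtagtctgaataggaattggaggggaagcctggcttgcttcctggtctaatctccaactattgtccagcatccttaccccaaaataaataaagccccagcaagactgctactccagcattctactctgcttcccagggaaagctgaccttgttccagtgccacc
The element began at -100 in Csn1s1, -93 in Csn2 and -145 in Glycam1, counted from the start site. It was present in 4 of the 13 windows of the milk protein genes, which cover 12 genes, and in 8.30% of all 32851 promoters of this length. The windows of Lalba and Wap held no such letters. A match of letters is a description and shows no binding.

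Egf and 3 mineral transporters were, with Csn1s2b, the 5 genes with the largest rises among called genes whose stages did not overlap. Of the 14 tested genes that handle calcium, phosphate, zinc and iron, 7 were higher and 4 lower (median change 0.20), and the 3 largest rises in the list were 20-fold to 22.9-fold. Egf, epidermal growth factor, which is secreted into milk, read 10.87, 10.62, 10.72 and 10.93 at lactation day 9, against 4.56, 4.26, 4.10 and 4.49 at pregnancy day 17. It rose 86.1-fold (6.43 ± 0.18, adjusted p = 3.11e-15), and its late pregnancy mean of 4.35 lay just above the filter line.

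Slc39a8, a zinc and manganese importer of the ZIP family, read 11.96, 12.26, 12.31 and 12.28 at lactation day 9, against 7.71, 8.00, 7.23 and 7.79. Atp2b2, the plasma membrane calcium pump that moves calcium into milk, had 9.08, 8.40, 9.12 and 8.76, against 4.71, 4.49, 4.28 and 4.33. Slc34a2, a sodium-phosphate cotransporter, had 12.76, 12.51, 12.73 and 12.59, against 8.48, 8.40, 8.16 and 8.27. Their log2 changes were 4.52 ± 0.19, 4.38 ± 0.18 and 4.32 ± 0.26, with no overlap of the stages in any of these transporters. Slc20a1, a second phosphate carrier, rose by 1.90 ± 0.23 (adjusted p = 1.34e-06).

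Zinc-binding metallothioneins moved the other way. Mt2 read 6.74, 6.69, 6.51 and 7.03 at lactation day 9, against 10.73, 11.26, 10.92 and 11.06 at pregnancy day 17, a 19.0-fold difference (-4.25 ± 0.31, adjusted p = 1.94e-09). Its neighbour Mt1, named here after its values were seen, had 10.36, 10.91, 11.04 and 11.04, against 11.61, 12.19, 11.60 and 11.33, and fell by 0.85 ± 0.31 (adjusted p = 0.0217). At the stages between, Mt1 averaged 8.73 at lactation day 1 and 8.79 at lactation day 2, so that it was higher at lactation day 9 than at day 2 by 2.04 (adjusted p = 7.57e-05), while Mt2 averaged 6.08 and 6.31. The genes share much of their sequence, so their probe sets may read each other in part. The fall of Mt1 was not called under quantile normalization (adjusted p = 0.0538), under equal ribosomal medians, without lactation day 9 replicate 1 (adjusted p = 0.0772) or without pregnancy day 17 replicate 2 (adjusted p = 0.0792).

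Both metallothionein promoters, chosen after the values were seen, are shown because these genes are known to be switched on by zinc through metal response elements. Capitals mark the core letters TGCACNC or TGCGCNC on either strand. Mt2 lies at chr8:94172368-94172667 and Mt1 at chr8:94178839-94179138, both on the plus strand, in RefSeq build GRCm38.p6.
Mt2: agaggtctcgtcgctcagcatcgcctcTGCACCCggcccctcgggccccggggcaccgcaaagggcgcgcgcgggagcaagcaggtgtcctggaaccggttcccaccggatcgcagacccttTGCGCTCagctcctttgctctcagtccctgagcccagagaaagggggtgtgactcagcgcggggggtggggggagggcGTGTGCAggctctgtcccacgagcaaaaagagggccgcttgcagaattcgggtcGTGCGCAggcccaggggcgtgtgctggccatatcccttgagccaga
Mt1: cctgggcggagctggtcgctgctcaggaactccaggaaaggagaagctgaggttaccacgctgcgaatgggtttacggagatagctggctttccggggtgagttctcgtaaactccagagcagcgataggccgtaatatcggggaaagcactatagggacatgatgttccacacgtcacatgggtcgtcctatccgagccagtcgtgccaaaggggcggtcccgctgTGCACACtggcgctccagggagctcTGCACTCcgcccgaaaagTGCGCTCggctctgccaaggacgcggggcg
Mt2 held 4 such cores, at -223, -128, -50 and 5, and Mt1 held 3, at -23, 3 and 21. A core was found in 25.7% of all promoters of this length, and 3 or more cores in 1.97%. Neighbouring cores in these windows did not overlap, and nothing about binding follows from the letters.

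**Figure D2:**
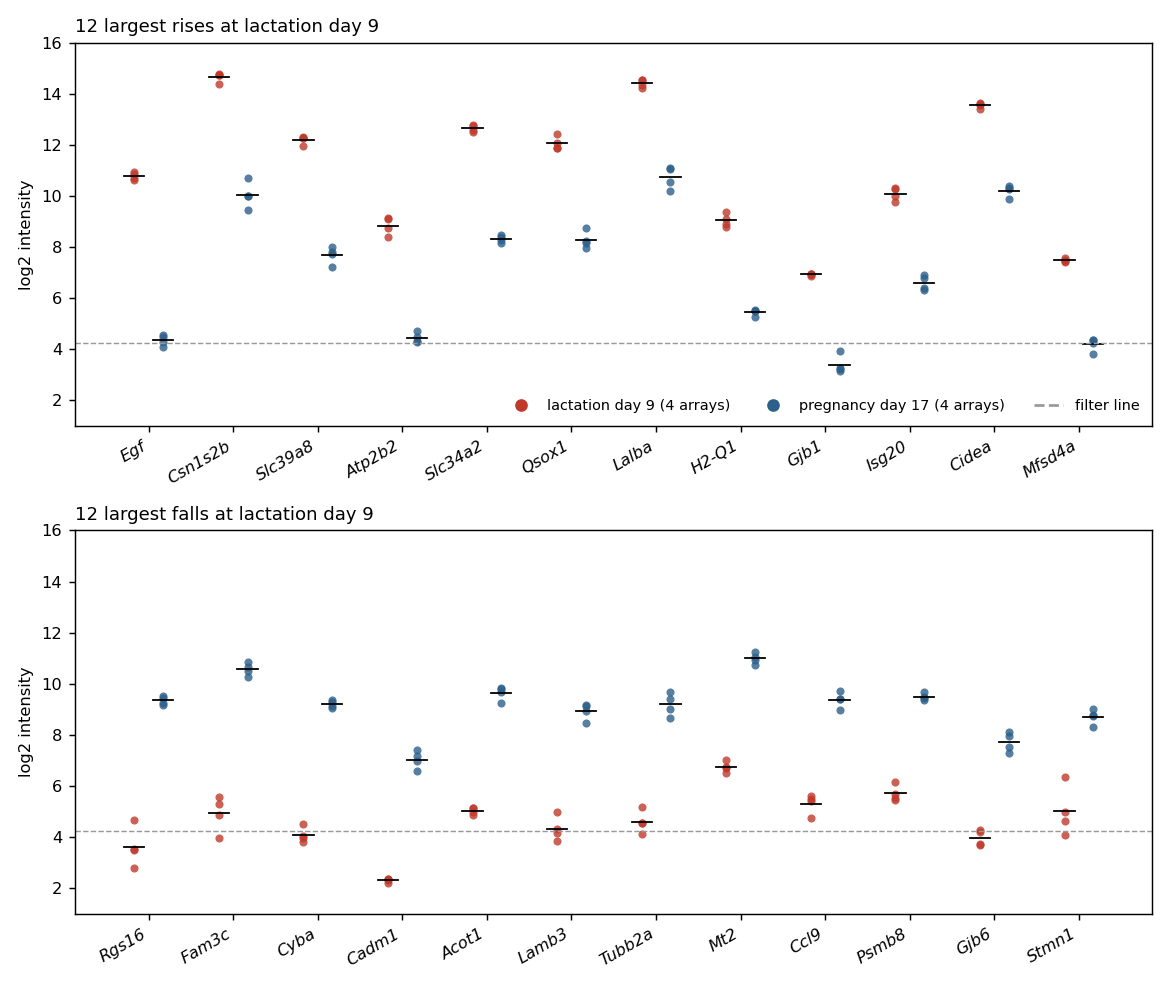
Log2 intensity on every array for the genes with the 12 largest rises and 12 largest falls among called genes whose stages do not overlap; red points are lactation day 9, blue points pregnancy day 17, short bars the means and the dashed line the filter line at 4.24. Egf rose by 6.43 and Rgs16 fell by 5.73 on the log2 scale, and several of the falls end at or below the filter line.

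Beyond minerals, the largest rises included secretory and lipid droplet genes. Qsox1, a secreted enzyme that forms disulfide bonds, rose 13.7-fold (12.05 ± 0.26 at lactation day 9 against 8.28 ± 0.34, SD, n = 4 each). Cidea, a lipid droplet protein of the secretory cells and of brown fat, had 13.64, 13.60, 13.57 and 13.39 at lactation day 9, against 10.28, 10.38, 9.88 and 10.30 (3.34 ± 0.20, adjusted p = 1.17e-10). The exonuclease gene Isg20, best known as interferon-induced, rose by 3.49 ± 0.21. H2-Q1, a class I histocompatibility gene, rose by 3.59 ± 0.23, but its probe set is of a kind that shares sequence with related genes, so the gene behind the signal is uncertain. The same holds below for Cadm1, Anxa1, Aldoa, Cox6a1, Vamp8, Stat5a, Gja1, Saa2, Tubb5, Tuba1a and Cry1. Probe sets of a related kind, which can match several transcripts, read Pkm, Ghr and Ndufa5. Mfsd4a, a member of a transporter superfamily, averaged 7.49 ± 0.07 at lactation day 9 and 4.19 ± 0.27 at pregnancy day 17, where it lay below the filter line.

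The largest falls ended near background. Rgs16, a regulator of G protein signalling, read 3.47, 3.52, 4.68 and 2.80 at lactation day 9, against 9.24, 9.52, 9.18 and 9.45 at pregnancy day 17. Fam3c, a secreted cytokine-like protein, had 3.95, 5.57, 4.87 and 5.29, against 10.50, 10.27, 10.86 and 10.66. Cyba, a subunit of the NADPH oxidase, had 3.97, 4.04, 3.80 and 4.49, against 9.37, 9.28, 9.04 and 9.13. Their changes of -5.73 ± 0.48, -5.65 ± 0.25 and -5.13 ± 0.22 were the largest falls of all genes named by the rule. Where a mean lay below 4.24, as for Rgs16, Cyba, the adhesion molecule gene Cadm1 (2.31 ± 0.06 at lactation day 9 against 7.03 ± 0.36) and Gjb6, the lower level did not stand above the filter and the fold is not exact. Of the other Cadm1 probe sets, one fell by less (-1.43, adjusted p = 6.84e-05) and one was not called (-0.18, adjusted p = 0.362).

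Most genes of fatty acid synthesis rose. Of 13 tested, 9 were higher and 1 lower (median change 0.93), and 3 were not called. Elovl5, a fatty acid elongase, read 12.00, 12.66, 12.77 and 12.53 at lactation day 9, against 9.26, 9.26, 9.71 and 9.70, an 8.06-fold difference (adjusted p = 1.9e-11). Slc25a1, the citrate carrier that supplies acetyl units to the cytosol, had 11.08, 12.28, 12.30 and 12.25, against 9.95, 9.65, 9.86 and 9.90 (2.14 ± 0.26, adjusted p = 1.4e-06). Replicate 1 was the low array in both, still above every pregnancy array.

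Further along the pathway, the desaturase Fads1 rose by 1.49 ± 0.13 and Thrsp, a protein that promotes lipogenesis, by 1.26 ± 0.18. Acly, which splits citrate into acetyl-CoA, rose by 1.08 ± 0.12 (adjusted p = 6.51e-07). Fasn, fatty acid synthase, rose less, by 0.49 ± 0.15 (adjusted p = 0.00959), with 12.73 in replicate 1 at lactation day 9 inside the pregnancy range of 12.52 to 12.91. Scd1, the main stearoyl-CoA desaturase, was not called by its brightest probe set (0.37 ± 0.20, adjusted p = 0.119). Without lactation day 9 replicate 1 that change was 0.60 (adjusted p = 0.00811). It was called under equal ribosomal medians (0.90), equal array medians (0.54) and array weights (0.40). Another bright probe set of Scd1, at 13.66 against 13.23, was called higher on the deposited scale (0.43, adjusted p = 0.00906). A dimmer one was not called (0.91, adjusted p = 0.109). The member that fell was Dbi, an acyl-CoA-binding protein, by 1.37 ± 0.12. Srebf1, the transcription factor that drives lipogenic genes, rose by 1.16 ± 0.18 (adjusted p = 2.61e-05).

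Several genes of cholesterol synthesis rose. Sqle, squalene epoxidase, rose by 1.59 ± 0.17, Fdps, farnesyl diphosphate synthase, by 1.16 ± 0.28, Fdft1, squalene synthase, by 0.93 ± 0.16 and Lss, lanosterol synthase, by 0.91 ± 0.18. These 4 were the calls among 15 tested genes (4 higher, 0 lower, median change 0.31). Higher calls numbered 6 under quantile normalization (median 0.50), 9 under equal array medians (median 0.54) and 12 under equal ribosomal medians (median 0.90). Relative to lactation day 2, 7 genes of the list were lower and 0 higher at lactation day 9, where limma called 16.2% of all tested probe sets lower and 8.85% higher. That comparison shares the lactation day 9 arrays.

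The fat droplet coat held both strong rises and strong falls. Of 11 tested genes of milk fat globule secretion, 5 were higher and 2 lower (median change 0.38). Muc1, a membrane mucin of the globule, rose by 2.47 ± 0.19, Xdh, xanthine oxidoreductase, by 1.58 ± 0.26 and Btn1a1, butyrophilin, by 0.98 ± 0.18. The annexins fell: Anxa1, which read 6.15, 6.68, 5.28 and 6.02 at lactation day 9 against 9.82, 9.54, 9.51 and 9.44, by 3.55 ± 0.27, and Anxa2 by 2.23 ± 0.15. Annexins are made by many cell types besides the secretory cell. Plin2, the droplet-coating adipophilin, differed by -0.13 ± 0.12 (adjusted p = 0.326) and was called higher under equal ribosomal medians (0.40).

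Triglyceride assembly had 3 higher and 2 lower of 8 tested genes (median change -0.07). Lpin1, a phosphatidate phosphatase, rose by 1.85 ± 0.26 and the acyltransferase Agpat1 by 1.00 ± 0.16, while Acsl4, an acyl-CoA synthetase, fell by 1.61 ± 0.34. Dgat1, which makes the final ester bond, differed by -0.04 ± 0.15 (adjusted p = 0.844), but was called higher under quantile normalization (0.34) and under equal ribosomal medians (0.49).

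Uptake and binding of fatty acids had 5 higher and 3 lower of 11 (median change 0.30). Slc27a3, a fatty acid transport protein, rose by 1.57 ± 0.12, and Lrp1, a lipoprotein receptor of many cell types, fell by 1.60 ± 0.17. At pregnancy day 17 Slc27a3 averaged 3.81, below the filter line. It entered the test only through another stage, and the size of its rise is not exact. Lpl, the lipoprotein lipase that releases fatty acids from blood lipids, was high at both stages, at 12.52 ± 0.19 and 12.34 ± 0.14, and its change of 0.19 ± 0.14 was not called (adjusted p = 0.246). It was called higher under quantile normalization (0.32), equal array medians (0.36) and equal ribosomal medians (0.72).

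Most genes of fatty acid breakdown fell. Among 20 tested genes of beta oxidation, 15 were lower and 1 higher (median change -1.13). Acot1, an acyl-CoA thioesterase, read 5.14, 4.96, 5.12 and 4.85 at lactation day 9, against 9.26, 9.84, 9.81 and 9.67 at pregnancy day 17 (-4.62 ± 0.23, adjusted p = 1.53e-11). Cpt1a, which admits fatty acids to the mitochondrion, had 3.31, 3.98, 2.69 and 3.97, against 5.95, 6.84, 5.73 and 5.61, and its partner Cpt2 had 5.06, 5.49, 5.24 and 5.25, against 7.15, 7.15, 7.14 and 6.96. Neither overlapped between stages, with changes of -2.55 ± 0.25 and -1.84 ± 0.20. The called rise was Ehhadh, a peroxisomal enzyme named after its values were seen, at 0.85 ± 0.18. A dimmer probe set of Cpt2 went the other way (1.11, adjusted p = 4.49e-05).

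Adipocyte markers fell beside these genes, with 12 of 14 lower and 1 higher (median change -1.30). Their summed intensity was 5250 to 6080 at lactation day 9 and 9020 to 9820 at pregnancy day 17. Lep, leptin, fell by 2.19 ± 0.27, Sncg, gamma-synuclein, by 2.93 ± 0.30. Adipoq, adiponectin, fell by 1.45 ± 0.23, and the called rise was Pnpla2, a triglyceride lipase, at 0.75 ± 0.21. Adipoq and Pnpla2 were picked once their values were known. The part of a lower share of adipocyte RNA in the fall of the beta oxidation genes was not tested. Of the 5 brown adipocyte markers tested, 4 were higher and 0 lower (median change 0.51). When the filter was set at the 75th percentile of all values, 2 were higher. Cox7a1 averaged 3.97 at pregnancy day 17, below the filter line, and entered the test only through another stage. Its change of 0.51 stands beside a median of 0.34 for all probe sets between 4 and 5. Elovl3 rose by 0.39, from 4.9 to 5.29. The count of this list thus says little. Its summed intensity of 11100 to 13000 at lactation day 9 against 1150 to 1520 was carried by Cidea. Ucp1, the defining uncoupling protein, was at 4.83 at lactation day 9 and was not called (change 0.23).

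Sugar metabolism changed unevenly. In lactose synthesis and glucose entry 4 of 10 tested genes were higher and 2 lower (median change 0.23). Slc2a1, the GLUT1 glucose transporter, had 7.53, 7.34, 7.42 and 7.23 at lactation day 9, against 6.20, 6.01, 6.49 and 6.09 (1.19 ± 0.21, adjusted p = 9.51e-05). B4galt1, the galactosyltransferase partner of alpha-lactalbumin, averaged 9.72 ± 0.38 against 9.21 ± 0.31, overlapped between stages, and was barely called (0.51, adjusted p = 0.0481). Leaving out any of 5 arrays ended that call, with adjusted p up to 0.182 without lactation day 9 replicate 1. Pgm1, a phosphoglucomutase, fell by 0.90 ± 0.16, a call lost under equal ribosomal medians (adjusted p = 0.0634).

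Glycolysis had 3 higher and 6 lower of 14 (median change -0.18), against 4 higher and 2 lower under quantile normalization and 8 higher and 1 lower under equal ribosomal medians. Aldolase genes went apart: Aldoc, the isoform of brain, read 10.92, 11.27, 11.36 and 11.35 at lactation day 9, against 9.30, 9.26, 8.77 and 9.47 (2.02 ± 0.16), while Aldoa, the widespread isoform, fell by 0.93 ± 0.13. Pkm, pyruvate kinase, fell by 0.85 ± 0.14, but a dimmer probe set of it was not called (0.04, adjusted p = 0.812). The pentose phosphate pathway, which supplies NADPH for lipid synthesis, had 4 of 5 genes lower and 0 higher (median change -0.62), with 1 called each way under equal ribosomal medians, among them Tkt, transketolase, at -0.63 ± 0.14 and Pgls, a lactonase, at -0.94 ± 0.14. The falls of Pkm and Tkt were not called under equal ribosomal medians (adjusted p = 0.067 and 0.598).

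Mitochondrial genes gave more lower than higher calls on the deposited scale. Pyruvate use and the citric acid cycle had 14 of 24 lower and 5 higher (median change -0.62), and the respiratory chain and ATP synthase 22 of 35 lower and 2 higher (median change -0.42). Pdk4, a kinase that shuts off pyruvate oxidation, fell by 1.68 ± 0.35. Against the trend of its list Cs, citrate synthase, had 10.36, 10.50, 10.74 and 10.66 at lactation day 9, against 9.48, 9.21, 9.39 and 9.48 (1.18 ± 0.11, adjusted p = 5.05e-08). The complex I subunits Ndufa5 and Ndufa2 fell by 1.23 ± 0.16 and 1.04 ± 0.13, and Cox6a1 of complex IV did not pass the test (0.02 ± 0.11). Under equal ribosomal medians the respiratory list's median was 0.15, so its direction rests on the scaling; it then had 11 higher and 5 lower, and the citric acid cycle list 9 higher and 6 lower (median -0.09).

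**Figure D3:**
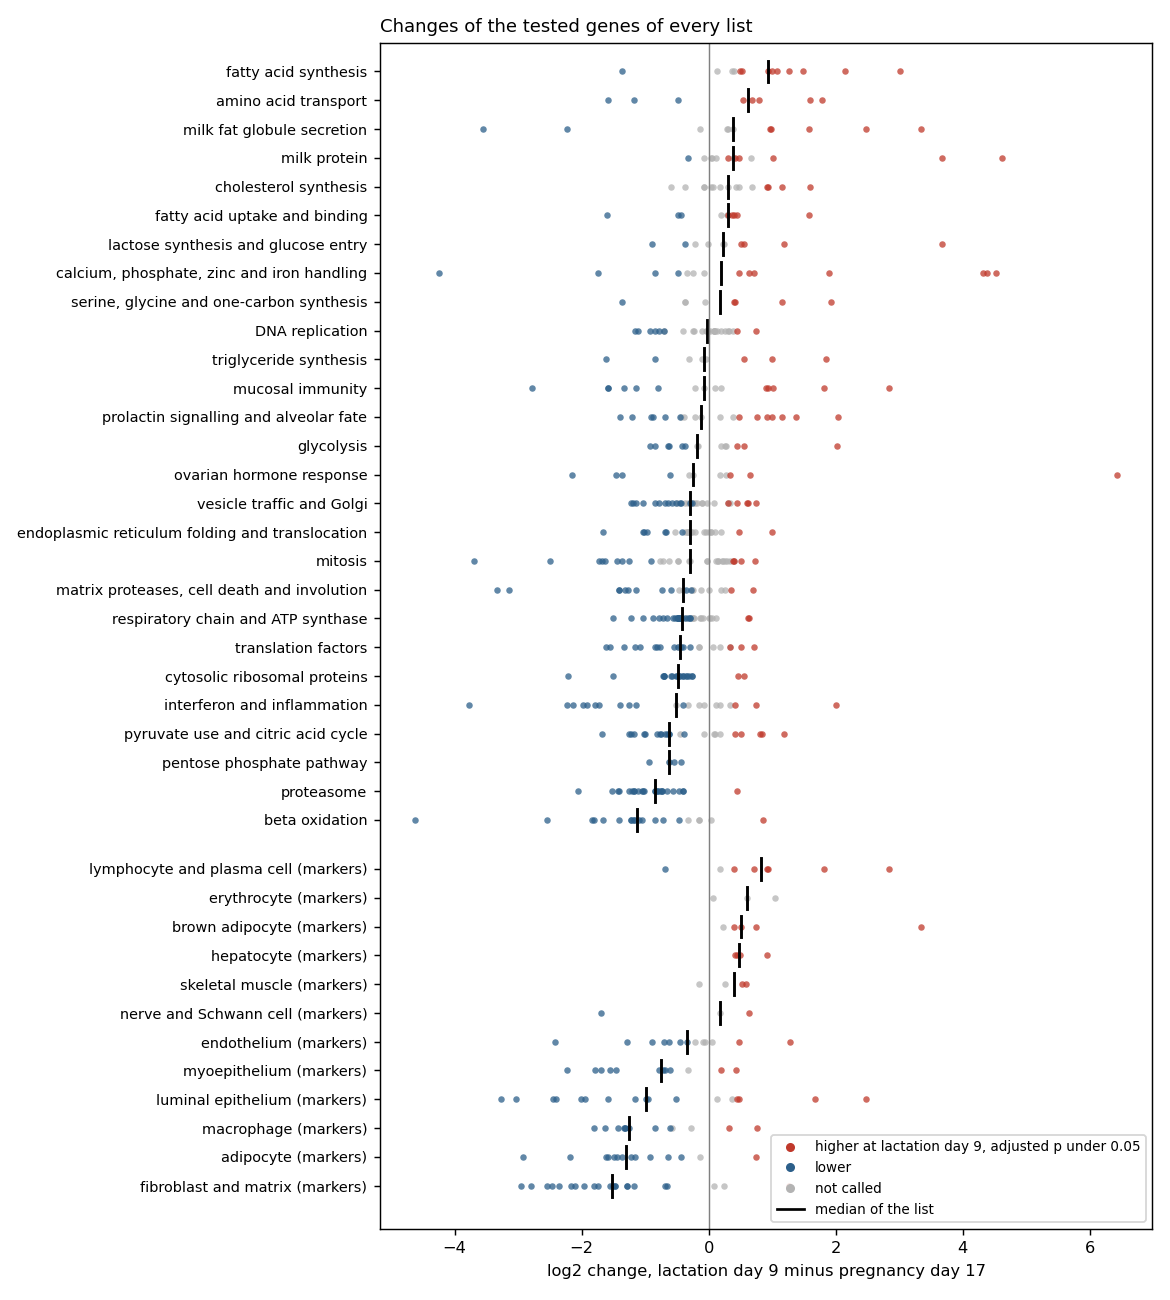
Log2 change at lactation day 9 minus pregnancy day 17 of every tested gene in 27 pathway lists and 12 marker lists; red and blue points were called higher and lower, grey points were not called, and black ticks are medians. Medians run from 0.93 for fatty acid synthesis to -1.52 for fibroblast and matrix markers, and single genes such as Egf (6.43) and Acot1 (-4.62) lie far from the rest of their lists.

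For other lists whose median or count of lower calls moved by over 1.5 times, equal ribosomal medians gave a median of -0.60 for beta oxidation, -0.77 for adipocyte, -0.44 for luminal and -0.73 for macrophage markers, each still with more lower than higher calls. Endothelial markers then had 4 higher and 2 lower, prolactin signalling 10 higher and 2 lower, ovarian response 5 higher and 3 lower, mucosal immunity 7 higher and 4 lower, interferon genes 8 higher and 9 lower, and proteases and involution genes 6 higher and 7 lower.

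Amino acid supply was mixed. Of 8 tested transporters, 5 were higher and 3 lower (median change 0.61), so that every one was called. Slc7a7, a light chain for cationic amino acids, rose by 1.79 ± 0.20 and Slc1a4, a carrier of small neutral ones, by 1.60 ± 0.19, while Slc1a5, the glutamine carrier, fell by 1.58 ± 0.26. In serine, glycine and one-carbon synthesis 4 of 8 were higher and 1 lower (median change 0.17). Gnmt, glycine N-methyltransferase, rose by 1.93 ± 0.19 and Trib3, a stress-induced pseudokinase, by 1.16 ± 0.19, while Ahcy, which clears S-adenosylhomocysteine, fell by 1.37 ± 0.20.

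Genes that make and ship proteins gave more lower than higher calls on the deposited scale, a direction that turned with the scaling. Endoplasmic reticulum folding had 2 higher and 7 lower of 24 (median change -0.30), against 10 higher and 3 lower under equal ribosomal medians (median 0.26). Pdia3, a disulfide isomerase, fell by 1.67 ± 0.32 and Manf, a stress-induced secreted factor, by 1.03 ± 0.24 (not called under equal ribosomal medians, adjusted p = 0.0905), while Hspa5, the chaperone BiP, differed by -0.37 ± 0.26 (adjusted p = 0.213). Dnajb9, a BiP co-chaperone, was called higher (0.99 ± 0.36, adjusted p = 0.0227), with values of 4.85, 6.0, 6.81 and 7.01 that overlapped the pregnancy arrays. Leaving out lactation day 9 replicate 3 or 4, or pregnancy day 17 replicate 1 or 2, ended that call, with adjusted p from 0.0506 to 0.0998. Another probe set of Dnajb9 was not called (0.12, adjusted p = 0.815).

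Vesicle traffic and Golgi genes had 5 higher and 14 lower of 31 (median change -0.29), against 8 higher and 7 lower under quantile normalization and 10 higher and 4 lower under equal ribosomal medians. Vamp8, a fusion protein of secretory vesicles, fell by 1.23 ± 0.15, Kdelr1, which returns resident proteins to the endoplasmic reticulum, by 1.19 ± 0.15, and Sec23a, a coat protein, by 1.14 ± 0.14.

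Cytosolic ribosomal proteins had 2 higher and 19 lower of 22 (median change -0.48). Rpl13a fell by 2.22 ± 0.15 and Rpsa by 1.50 ± 0.12, both outliers in a list of mostly small changes. Translation factors had 3 higher and 13 lower of 22 (median change -0.46), with Eif6 at -1.62 ± 0.16 and Eif2s3x at -1.56 ± 0.11. Under equal ribosomal medians the lists had 6 higher and 2 lower, and 7 higher and 5 lower, with medians of 0.06 and 0.07, a scaling that by construction takes the ribosomal change out.

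Most genes of the proteasome, which degrades tagged proteins, were lower. Of its 26 tested genes, 25 were lower and 1 higher (median change -0.85), against 32.0% lower over all probe sets. The rise was Psmc4, an ATPase whose value of 0.45 was looked up after the count was made, at a dim level of 4.68 against 4.24. The count depended on the scaling: 21 were lower under quantile normalization (median -0.51) and under equal array medians (median -0.68), and 13 under equal ribosomal medians (median -0.32). Psmd4, a ubiquitin receptor of the proteasome, read 6.72, 7.19, 7.16 and 7.06 at lactation day 9, against 8.92, 9.47, 8.94 and 9.01 (-2.05 ± 0.13, adjusted p = 3.87e-10). Psmd13 fell by 1.53 ± 0.14 and the ATPase Psmc2 by 1.43 ± 0.15. Summed intensity was 6320 to 7900 at lactation day 9 and 12700 to 14900 at pregnancy day 17. Relative to lactation day 2, 21 of the 26 were lower at lactation day 9 (median -0.47).

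Hormone signalling genes split. In prolactin signalling and alveolar fate 7 of 19 were higher and 6 lower (median change -0.12). Igf1, a growth factor made largely by stroma, had 9.19, 8.07, 8.68 and 8.49 at lactation day 9, against 6.62, 6.29, 6.74 and 6.64 (2.03 ± 0.20, adjusted p = 8.57e-08). Akt1, a kinase of the insulin pathway, rose by 1.38 ± 0.11 and Elf5, the transcription factor of alveolar cells, by 0.47 ± 0.14 (adjusted p = 0.00549). Nfib, a transcription factor that acts with STAT5, fell by 1.40 ± 0.16 and Ghr, the growth hormone receptor, by 1.20 ± 0.17. Stat5a (-0.43 ± 0.22, adjusted p = 0.0927) and the STAT5 target Cish (0.17 ± 0.17, adjusted p = 0.42) were not called. With the replicate number as a block, Stat5a was called lower (-0.43, adjusted p = 0.0442). Another probe set of Stat5a, at 7.80 against 8.45, was called lower without the block (-0.66, adjusted p = 0.0258). Cish was called higher under quantile normalization (0.56) and equal ribosomal medians (0.70).

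Ovarian hormone response genes had 3 higher and 4 lower of 11 (median change -0.25), and Egf was the largest rise among them. Tfap2c, a transcription factor of luminal cells, fell by 2.15 ± 0.17, Erbb3, a receptor of the Egf receptor family, by 1.46 ± 0.40 and Igfbp2, which binds insulin-like growth factors, by 1.37 ± 0.33.

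Epithelial cell markers changed in both directions. Of 17 luminal markers, 11 were lower and 4 higher (median change -0.98), and the summed intensity of the list overlapped, at 8100 to 9020 at lactation day 9 and 8250 to 9020 at pregnancy day 17. Krt19, a keratin of simple epithelia, read 7.66, 6.93, 7.41 and 7.34 at lactation day 9, against 10.55, 10.58, 10.74 and 10.53 (-3.27 ± 0.17, adjusted p = 1.53e-11). Kit, a receptor kinase of luminal progenitors, fell by 3.04 ± 0.21 to 3.32 ± 0.09, under the filter line, and the tight junction gene Cldn3 by 2.45 ± 0.24. Krt8, a further keratin, fell by 2.01 ± 0.11, while Cldn8, another claudin, rose by 1.67 ± 0.13; both were picked after their values were seen. Muc1 and Elf5 were the other luminal markers named above that rose.

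Gap junction genes, which couple neighbouring cells, went apart. Gjb1, a connexin of secretory epithelia, had 6.87, 6.95, 6.93 and 6.94 at lactation day 9, against 3.25, 3.16, 3.92 and 3.24, all below the filter line. Gjb6, a further connexin, had 4.27, 4.19, 3.70 and 3.74, against 7.51, 7.29, 8.11 and 7.95. Their changes were 3.53 ± 0.21 and -3.74 ± 0.37, and the arrays of the stages lay far apart for both. Gjb2, another connexin, at 9.43 ± 0.41 against 12.56 ± 0.14, and Gja1, the connexin of myoepithelium, at 6.13 ± 0.15 against 8.32 ± 0.35, also fell. A dimmer probe set of Gja1 was not called (0.12, adjusted p = 0.597). Gjb2 and Gja1 were looked up after their values were seen, and no list of connexins was made.

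Most markers of myoepithelium and stroma read lower. Myoepithelial markers had 9 of 12 lower and 2 higher (median change -0.75), against 5 lower and 2 higher under equal ribosomal medians (median -0.22), among them Acta2, smooth muscle actin, at 9.39 ± 0.36 against 11.18 ± 0.18, and Mylk, myosin light chain kinase, at 6.80 ± 0.69 against 9.04 ± 0.29. The keratins Krt5 and Krt14, which define these cells, were below the filter line and not tested. The 2 higher calls were also keratins, Krt15 (0.43) and Krt17 (0.19), looked up after their values were seen. Trp63, a transcription factor of basal cells, was not called (-0.33). The falls named here are thus those of contractile genes. Lamb3, a laminin chain of the basement membrane, fell by 4.62 ± 0.26.

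Fibroblast and matrix markers had 19 of 22 lower and 1 higher (median change -1.52). Col1a2, a type I collagen chain, read 6.59, 8.99, 8.33 and 8.64 at lactation day 9, against 10.96, 10.96, 10.82 and 11.03, and Lum, the matrix proteoglycan lumican, had 3.66, 6.55, 5.23 and 5.61, against 8.12, 7.94, 8.59 and 8.20. Replicate 1 was lowest for both, and without it the list's median was -1.21. Fbln1, fibulin 1, picked after its values were seen, rose by 1.26 ± 0.14, but dimmer probe sets of it were not called (0.20 and -0.55). A dimmer probe set of Col1a2 rose by 0.45 (adjusted p = 0.0274).

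Endothelial markers had 7 of 13 lower and 2 higher (median change -0.35), with Cldn5, the endothelial claudin, at 3.77 ± 0.04 against 6.19 ± 0.46 and Pecam1, an adhesion molecule of vessels, at 8.03 ± 0.10 against 6.75 ± 0.42. Macrophage markers had 9 of 13 lower and 2 higher (median change -1.26), including the complement genes C1qb (-1.81 ± 0.21) and C1qc (-1.63 ± 0.23). Of nerve and Schwann cell markers 1 of 3 was higher and 1 lower (median change 0.18), and the fall was Pmp22, a myelin protein, by 1.69 ± 0.20. Skeletal muscle (2 higher, 0 lower of 4, median 0.40) and hepatocyte markers (4 higher, 0 lower of 4, median 0.47) were few. Without lactation day 9 replicate 2, all 4 muscle markers were higher. The hepatocyte genes Apoa2, Fgg and F2 and the muscle genes Tnni2 and Tnnt3 lay below the filter line at pregnancy day 17. They entered the test only through another stage, and averaged 4.28 to 4.61 at lactation day 9. Their changes of 0.41 to 0.58 stand beside a median of 0.34 for all probe sets between 4 and 5, so these counts say little. None of 3 erythrocyte markers was called (median 0.60), while all 3 were higher without lactation day 9 replicate 1 and 1 with the replicate number as a block; Hba-a1, alpha globin, ranged between 9.12 and 13.12 at lactation day 9 and between 11.34 and 12.24 at pregnancy day 17.

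**Figure D4:**
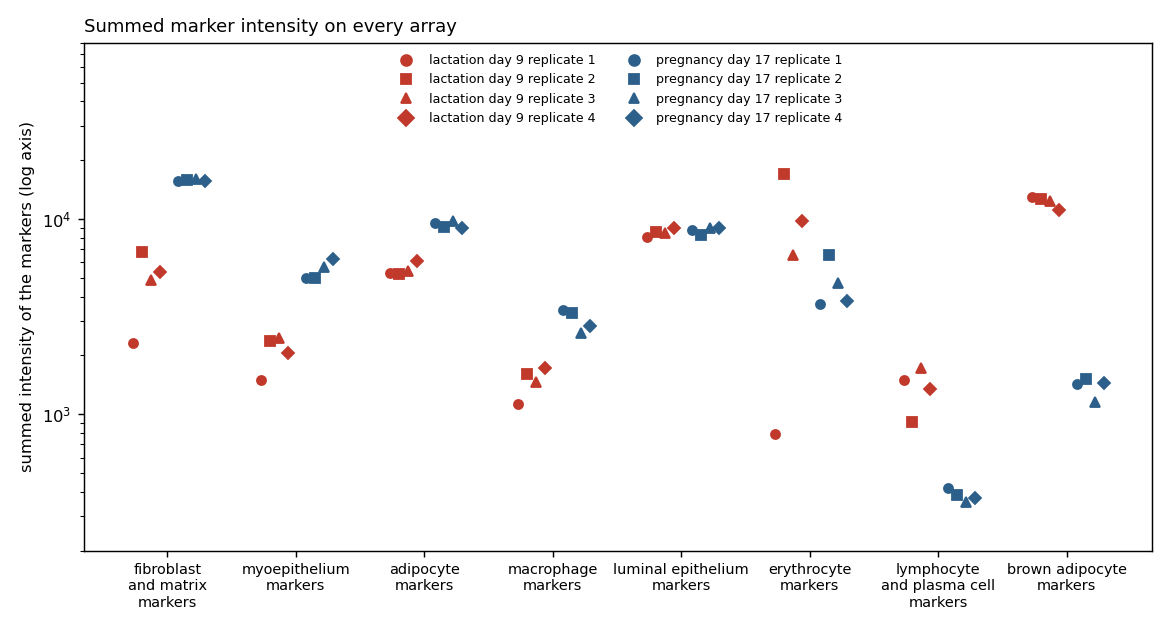
Summed linear intensity (log axis) of 8 marker lists on every array; red symbols are lactation day 9, blue symbols pregnancy day 17, and each symbol shape is a replicate number. Fibroblast, myoepithelial, adipocyte and macrophage sums do not overlap between stages and are lower at lactation day 9, lymphocyte and brown adipocyte sums are higher, and lactation day 9 replicate 1 is lowest for fibroblast (2320) and erythrocyte (790) genes.

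Most lymphocyte and plasma cell markers rose. Lymphocyte and plasma cell markers had 6 of 8 higher and 1 lower (median change 0.82). Ighm, the immunoglobulin mu heavy chain, read 10.10, 9.20, 10.37 and 9.92 at lactation day 9, against 7.46, 7.21, 6.55 and 7.0 (2.84 ± 0.40, adjusted p = 7.01e-06). Its other tested probe sets were dimmer. Some rose, by 2.32, 1.59 and 1.29, and others were not called (0.12 and -0.18, adjusted p = 0.636 and 0.475). Jchain, which joins secreted IgA and IgM chains, rose by 1.81 ± 0.37. The B cell genes Cd79a and Ms4a1 rose by 0.94 ± 0.13 and 0.92 ± 0.21 at dim levels. Cd79a averaged 3.69 at pregnancy day 17, below the filter line, and entered the test only through another stage. The T cell genes Cd3d and Cd3g, the latter looked up after its values were seen, rose by 0.72 and 0.39. These stand beside a median of 0.34 for all probe sets between 4 and 5, so the count of this list says little.

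All immunoglobulin probe sets were then counted, a group formed after these values were seen. Of 62 probe sets for 27 genes, 32 passed the filter, and 30 of these were higher and 0 lower (median change 1.43). Relative to lactation day 2, 23 were higher and 0 lower (median 1.12). Over all tested probe sets 31.9% and 8.85% were higher in these comparisons. Members below the filter line at pregnancy day 17, such as an Ighm probe set at 5.05 against 3.77, entered only through a stage where they read higher. The filter thus leans the count towards rises. Probe sets of variable regions share sequence, so these are not separate measurements. Igha, the alpha heavy chain of milk IgA, had 11.46, 10.73, 11.65 and 11.28, against 9.00, 8.64, 8.69 and 8.79 (2.50 ± 0.37). Pigr, the receptor that carries IgA into milk, rose by 0.94 ± 0.36 (adjusted p = 0.027), a call lost without lactation day 9 replicate 1 (adjusted p = 0.0959) and without pregnancy day 17 replicate 3 (adjusted p = 0.0935). Igha and Pigr were also picked after their values were seen.

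The mucosal immunity list as a whole had 5 higher and 6 lower of 15 (median change -0.08). Its falls included Slpi, a protease inhibitor, at -1.59 ± 0.18 and B2m, the light chain of class I molecules, which had 11.25, 10.96, 10.75 and 10.44 at lactation day 9, against 12.54, 12.10, 12.70 and 12.37 (-1.58 ± 0.18). For Slpi, 2 dimmer probe sets rose by 0.53 and 0.54.

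Interferon and inflammation genes had 11 of 21 lower and 3 higher (median change -0.52). The higher calls were Orm1 (2.01), Cxcl10 (0.75) and Ccl2 (0.41). Cxcl10 and Ccl2 lay below the filter line at pregnancy day 17. Lcn2 (-0.08), Lbp (0.34) and Irf9 (-0.15) were not called, nor were the dim interferon-induced genes Isg15 (0.17) and Ifit2 (0.11). Of these, Cxcl10, Ccl2, Irf9, Isg15 and Ifit2 were looked up after their values were seen. Psmb8, an immunoproteasome subunit that cuts peptides for class I molecules, read 5.54, 6.14, 5.45 and 5.67 at lactation day 9, against 9.35, 9.46, 9.67 and 9.42 (-3.78 ± 0.17, adjusted p = 4.54e-12). The other immunoproteasome subunits Psmb9 and Psmb10 fell by 1.92 ± 0.18 and 1.98 ± 0.17, and Tap1 and Tap2, which pump the peptides into the endoplasmic reticulum, by 1.73 ± 0.22 and 1.79 ± 0.21. Psmb9, Tap1 and Tap2 were also named after their values were seen. The interferon-induced GTPase Gbp2 fell by 2.23 ± 0.23 and haptoglobin, Hp, by 2.14 ± 0.31, and the chemokine Ccl9, which is in no list, by 4.06 ± 0.19. Macrophage markers, which summed to 1130 to 1720 at lactation day 9 and 2600 to 3400 at pregnancy day 17, moved with these falls, and their part in them was not tested.

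Matrix proteases and genes of cell death and involution had 11 of 21 lower and 2 higher (median change -0.40). Tgfb2 and Tgfb3, growth factors of the TGF-beta family, were at 4.16 ± 0.11 against 7.49 ± 0.25 and at 4.56 ± 0.77 against 7.71 ± 0.53. Bcl2l1, a survival gene, fell by 1.42 ± 0.16, and the protease Ctsb was not called (-0.12 ± 0.16, adjusted p = 0.545), but was called higher under equal ribosomal medians (0.41). A dimmer probe set of Tgfb3 rose by 0.34 (adjusted p = 0.00943).

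Most cell division genes had no called net change. DNA replication had 2 higher and 6 lower of 27 (median change -0.02), fewer calls than the share over all probe sets, and mitosis 4 higher and 9 lower of 31 (median change -0.30). Several members averaged below the filter line at both stages, among them Mcm4 (4.02 against 3.72) and Top2a (4.03 against 3.88). For these the lack of a called net change says little. Under equal ribosomal medians replication had 12 higher and 0 lower (median 0.51) and mitosis 9 higher and 6 lower (median 0.50), so the direction of both lists rests on the scaling. Mcm7, a subunit of the replication helicase, fell by 1.16 ± 0.28 and Pcna, the polymerase clamp, by 0.84 ± 0.26. Neither fall was called under equal ribosomal medians (adjusted p = 0.0513 and 0.303), nor that of Pcna under quantile normalization (adjusted p = 0.154). Stmn1, a microtubule regulator, read 4.08, 6.34, 4.98 and 4.63 at lactation day 9, against 8.32, 8.77, 8.75 and 8.99, and Cks2, a subunit that binds cyclin-dependent kinases, fell by 2.50 ± 0.42. Mki67, the Ki-67 proliferation marker, was not called (0.21 ± 0.46, adjusted p = 0.709).

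The days in between looked different for these genes. Against lactation day 2, 18 of the 27 replication genes and 17 of the 31 mitosis genes were lower at lactation day 9, and 0 were higher, with medians of -1.10 and -0.81, beside 16.2% of all tested probe sets lower. Members below the filter line at lactation day 9 and pregnancy day 17 entered the test only through another stage. Where that stage was day 2, a fall to day 9 was in part built in. Rrm2, a ribonucleotide reductase subunit, averaged 4.52 ± 0.47 at pregnancy day 17, 6.88 ± 1.14 at lactation day 1, 8.08 ± 0.45 at day 2 and 4.53 ± 0.26 at day 9. Its net change of 0.02 ± 0.50 was not called (adjusted p = 0.98), while day 9 was lower than day 2 by 3.54 (adjusted p = 4.11e-05). Fen1, a flap nuclease of replication, followed the same course with 5.59, 7.75, 7.96 and 5.56.

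Other genes moved and came back by lactation day 9. Car4, a membrane carbonic anhydrase, averaged 7.57 at pregnancy day 17, 10.18 at lactation day 1, 10.41 at day 2 and 7.80 at day 9. Dhcr7, the last enzyme of cholesterol synthesis, averaged 5.19, 6.40, 7.54 and 5.23 at those stages, and Nsdhl of the same pathway 4.53, 6.26, 6.77 and 5.21. The potassium channel gene Kcnj15 dipped, at 5.79, 4.58, 4.39 and 5.99. The contrasts between these stages chose these genes and Rrm2 and Fen1, so their courses are a description. By its brightest probe set none of them had a called net change. Nsdhl, Car4 and Kcnj15 were called higher at lactation day 9 under equal ribosomal medians (adjusted p = 0.00294, 0.0368 and 0.00574). Nsdhl was also called higher under equal array medians and without lactation day 9 replicate 4 (adjusted p = 0.0273 and 0.0172). Other probe sets had called net changes on the deposited scale, so the return of these genes depends on the probe set. They were 1.16 for Nsdhl (adjusted p = 3.22e-05), 0.64 for Kcnj15 (adjusted p = 0.00459) and -1.23 for Car4 (adjusted p = 0.00507). A further Nsdhl probe set was not called (0.32, adjusted p = 0.15).

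A further set changed late, called at lactation day 9 against both lactation day 2 and pregnancy day 17 but not at day 1 or 2 against pregnancy day 17. Among the rises, Orm1, an acute phase protein, had 7.44, 9.92, 8.85 and 8.59 at lactation day 9, against 7.29, 6.39, 6.77 and 6.34 at pregnancy day 17 (2.01 ± 0.38). Fkbp5, a chaperone of steroid receptors, rose by 2.24 ± 0.31, Nr1d2, a clock repressor, by 1.83 ± 0.26, Dbp, a clock output factor, by 1.73 ± 0.39 and Prol1, a proline-rich secreted protein, by 2.49 ± 0.34. At pregnancy day 17 Prol1 averaged 4.02, below the filter line, so the size of its rise is not exact. Saa2, serum amyloid A, led the falls with a spread of 5.98 to 9.98 at lactation day 9, against 10.12 to 11.05 (-2.78 ± 0.62, adjusted p = 0.000695). The tubulins Tubb5 and Tuba1a fell by 2.87 ± 0.28 and 2.29 ± 0.20 and the histone H2ax by 2.31 ± 0.47. These contrasts chose the set, so its values are a description.

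Car2, a cytosolic carbonic anhydrase picked after its values were seen, also stepped late, with means of 9.75 at pregnancy day 17, 9.74 at lactation day 1, 9.74 at day 2 and 8.00 at day 9.

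Several of the net changes grew after secretion began. Egf averaged 4.35 at pregnancy day 17, 7.74 at lactation day 1, 8.15 at day 2 and 10.78 at day 9, and Slc39a8 7.68, 9.51, 9.66 and 12.20. From day 2 to day 9 the steps were 2.64 (adjusted p = 7.3e-09) and 2.54 (adjusted p = 4.9e-08). Krt19 averaged 10.60, 9.92, 10.04 and 7.33, so that most of its fall came after day 2 (-2.71, adjusted p = 4.57e-09), as did that of Fam3c at 10.57, 9.08, 8.82 and 4.92. By contrast Acot1, at 9.65, 5.04, 5.42 and 5.02, and Kit, at 6.36, 3.38, 3.27 and 3.32, had reached their lactation level at day 1, and their steps from day 2 to day 9 were not called (adjusted p = 0.237 and 0.9). The earlier stages share the pregnancy arrays with the main comparison, so these courses are not independent of it.

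**Figure D5:**
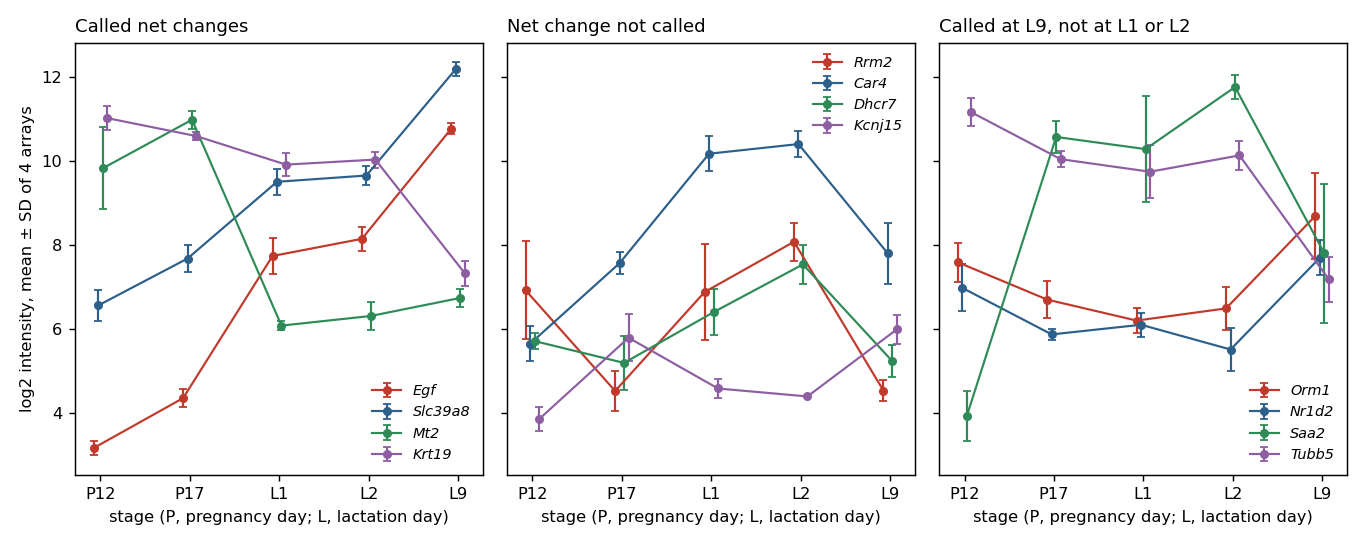
Mean log2 intensity ± SD of 4 arrays in 2 stages of pregnancy (P12, P17) and 3 of lactation (L1, L2, L9) for genes with a called net change (left), with a change that came and went (middle) and with a late change (right). Egf and Slc39a8 keep rising to lactation day 9, Rrm2 returns to 4.53 after 8.08 at lactation day 2, and Saa2 and Tubb5 fall after lactation day 2.

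The mammary arrays of lactation day 10, from other dams on defined diets, were read beside these levels. On 8%, 16% and 40% dietary fat, with 3 arrays each, Egf averaged 10.99, 11.03 and 11.13, beside 10.78 on chow at lactation day 9. Mt2 averaged 7.0, 6.94 and 5.97, beside 6.74, and Krt19 6.67, 6.54 and 6.62, beside 7.33. Igf1 averaged 10.04, 9.54 and 9.85, beside 8.61. Orm1, at 6.75, 7.91 and 7.13, lay between its means of 8.70 at lactation day 9 and 6.70 at pregnancy day 17, and Saa2, at 5.81, 5.61 and 5.47, lay below both its means, 7.80 at lactation day 9 and 10.58 at pregnancy day 17. Diet and day differ between these groups, so no test was made.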

How the data were processed

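The values are microarray intensities on a linear scale, deposited by the authors and made with GCRMA per the submitters' processing notes, with version and settings not given in the sources used here. Values ranged from 0.685 to 58520.1, were floored at 1 and taken as log2. Of 12488 probe sets, 66 controls were left out, and 10833 carried 1 gene symbol, 396 several and 1193 none. Tested probe sets had at least 1 stage mean at or above the median of all values (log2 4.24, linear 18.8). limma 3.58.1 in R 4.3.3 fitted the 20 chow arrays of 5 stages together, with Benjamini-Hochberg adjustment over all 7155 tested probe sets, and was tested on simulated data. A gene was read by its brightest probe set with 1 symbol, over the 20 arrays.

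Genes were named by rule: the 12 largest rises and falls whose arrays do not overlap, per list up to 5 called members and 3 others, a few genes always given, and the 5 largest passing and late changes each way. The members and lists were chosen with earlier results of these data known. Replicate numbers did not pair the arrays: same-numbered arrays had correlated deviations of -0.075, -0.034, -0.088 and 0.02. No arrays were identical, and the highest correlation between 2 arrays was 0.9959. Promoters came from RefSeq (GRCm38.p6). Other filters, scalings, variance models and arrays left out were tried as alternatives.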

Additional observations from a re-analysis of the deposited data

Results flagged for a closer look

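In 18 of 350 groups of 4 arrays checked (5.14%), an array lay far from the other 3 by Dixon's test; chance gives about 1 in 20. Among them, 6 were replicate 1 of lactation day 9, each low: Slc39a8 at 11.96 (others 12.26 to 12.31), Slc25a1 at 11.08 (12.25 to 12.30), Igfbp2 at 5.23 (6.61 to 6.84), Slpi at 6.06 (6.44 to 6.45), Mylk at 5.78 (7.06 to 7.25) and C1qc at 5.06 (6.29 to 6.50). Replicate 2 of lactation day 9 read high for Pcna at 8.05 (7.43 to 7.50) and Rrm2 at 4.93 (4.35 to 4.44), and low for Ms4a1 at 5.34 (5.65 to 5.67). Replicate 4 was low for Csn1s2b at 14.37 (14.72 to 14.76).

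At pregnancy day 17, replicate 2 was high for Hba-a1 at 12.24 (11.34 to 11.45), Psmd4 at 9.47 (8.92 to 9.01) and Fdft1 at 5.55 (5.27 to 5.29), and low for Pecam1 at 6.13 (6.88 to 7.03). Replicate 1 was high for Csn1s2a at 14.49 (14.26 to 14.28) and low for Ndufa5 at 9.35 (9.81 to 9.89). Replicate 3 was high for Cyp2e1 at 9.27 (9.05 to 9.08), and replicate 4 low for Cpt2 at 6.96 (7.14 to 7.15).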

How the results depend on the processing

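The 2286 higher and 2289 lower calls of lactation day 9 against pregnancy day 17 depended most on filter and scaling. Higher calls numbered 6891 with no filter, 716 with the 75th percentile filter and 4707 under equal ribosomal medians, where 1033 were lower, and a 2-fold rule left 300 higher and 951 lower. Against lactation day 2 the 633 higher calls became 1131 with no filter, 375 with the 75th percentile filter and 1056 with array weights. Leaving out each array gave 2106 to 2372 higher and 2155 to 2260 lower calls against pregnancy day 17, and 482 to 845 and 966 to 1239 against lactation day 2. With the replicate number as a block, 2293 were higher and 2301 lower against pregnancy day 17, and 625 and 1173 against lactation day 2; the block also called Stat5a lower (adjusted p = 0.0442) and 1 erythrocyte marker higher, against 0, changed no other call of the 186 genes and moved no other list count by over 1.5 times.

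List medians near 0 changed sign. With no filter they were 0.20 for glycolysis, 0.02 for DNA replication, 0.17 for prolactin signalling, 0.27 for ovarian response and 0.12 for interferon, and with the 75th percentile filter -1.69 for nerve markers. Quantile normalization gave 0.31 for triglyceride synthesis, 0.04 for vesicle traffic and 0.17 for prolactin signalling. Equal ribosomal medians, which shift all genes up, gave 0.18 for endothelium, 0.46 for triglyceride synthesis, 0.36 for glycolysis, 0.15 for the respiratory chain, 0.26 for endoplasmic reticulum, 0.24 for vesicle traffic, 0.06 for ribosomal proteins, 0.07 for translation, 0.51 for replication, 0.50 for mitosis, 0.56 for prolactin signalling, 0.49 for ovarian response, 0.45 for mucosal immunity, 0.07 for interferon and 0.11 for proteases and involution. Equal array medians gave 0.10 for triglyceride synthesis, 0.14 for replication and for mitosis, 0.19 for prolactin signalling, 0.13 for ovarian response and 0.09 for mucosal immunity. Averaging a gene's probe sets gave 0.02 for triglyceride synthesis, 0.01 for replication, 0.07 for prolactin signalling and 0.17 for ovarian response and for mucosal immunity.

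Leaving out 1 array at a time moved the median of replication between -0.12 and 0.06, above 0 for 4 arrays left out: replicates 1 and 4 of lactation day 9 (0.06 and 0.02), and replicates 3 and 4 of pregnancy day 17 (0.04 and 0.05). Mucosal immunity ran between -0.24 and 0.06, above 0 for 3 arrays left out: lactation day 9 replicate 4 (0.01), and replicates 1 and 2 of pregnancy day 17 (0.04 and 0.06). Prolactin signalling ran between -0.20 and 0.08, above 0 without pregnancy day 17 replicate 1 or 2 (0.01 and 0.08). Erythrocyte markers ran between -0.06 without lactation day 9 replicate 2 and 1.66 without replicate 1. Of 186 genes recomputed, 31 changed a call somewhere, 13 lost one and 5 reversed: Dgat1 (0.34 under quantile normalization, 0.49 under equal ribosomal medians) and, under equal ribosomal medians, Wfdc18 (0.21), Plin2 (0.40), Ldha (0.36) and Ctsb (0.41). Without lactation day 9 replicate 1, higher calls among macrophage markers and among proteases and involution genes went to 1 each, against 2 each; without replicate 2, those among replication genes went to 1, against 2. The cause of the other changes was not tested.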

Other observations

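Beside Dbp and Nr1d2, other genes of the daily clock were looked up after those values were seen. Per1 and Per2, clock repressors, rose by 0.98 and 0.81 at lactation day 9 against pregnancy day 17 (limma), and Tef, an output factor like Dbp, by 0.88. Cry1 (-0.35) and the activator Arntl (-0.03) were not called by their brightest probe sets. Dimmer probe sets of Cry1 were called higher, by 0.68 and 0.70 (adjusted p = 3.47e-05 and 0.000144). Arntl averaged 4.19 at lactation day 9 and 4.21 at pregnancy day 17, both below the filter line, so its lack of a call says little. The time of day of collection is not given in the sources used here, and its part in these values was not tested.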
